A study of Rattus norvegicus with 3 samples.

Results

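The Müller glia genes examined here were 10 genes chosen by name, *Rlbp1*, *Glul*, *Sox9*, *Slc1a3*, *Aqp4*, *Kcnj10*, *Vim*, *Clu*, *Dkk3* and *Nfia*, of the 18425 genes in the deposited table. All 10 were found under their symbols. RNA was taken from whole retinas of wild-type Sprague Dawley rats at postnatal day 4 (P4), after 1 µl of citrate buffer at pH 4.5 (Buffer), saline (Saline) or 10 µg of STZ (STZ) had been injected into the vitreous at P1. STZ, streptozotocin, is a sugar-linked nitrosourea that alkylates DNA, and it was itself dissolved in citrate buffer, so Buffer is its vehicle control. Each condition had 1 library, the number of retinas behind a library is not given in the sources used here, and no difference below has a replicate check or a p-value.

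Müller glia are the main glia of the retina. Their processes span its whole depth, take up glutamate, move water and potassium, and hand recycled retinoid to cones. They are among the last cells that retinal progenitor cells (RPCs) make, and in rodents they mature after birth. Several genes used to mark them, among them *Sox9*, *Vim*, *Slc1a3* and *Nfia*, are also expressed by RPCs, and *Aqp4*, *Glul* and *Slc1a3* by astrocytes. In RNA from bulk tissue, fewer cells of a type and less RNA per cell cannot be told apart.

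The library totals were 21992702 reads (Buffer), 21977843 reads (Saline) and 22031249 reads (STZ). Levels are given as FPKM, the reads of a gene scaled by the length of its transcript and the size of the library. The fold change is that of the study's methods, (FPKM + 1)/(FPKM + 1), with a lower threshold of 0.65 and its rounded reciprocal as the upper one. Beside it stands the count ratio, a gene's share of the reads of one library over its share in the other, and an exact 95% interval (Clopper-Pearson). That interval covers counting error only. A gene is called higher or lower by counting when its interval lies wholly above or below 1. The 3 libraries differed in tissue markers. The summed reads of 7 lens genes were 232 in Buffer, 537 in Saline and 2544 in STZ, and those of 7 ciliary and iris epithelium genes were 2362, 8497 and 2297. The 9 pigment epithelium genes summed to 966, 2056 and 984 reads, with the defining gene *Rpe65* at 0, 2 and 2, where a count of 0 allows up to 3.

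The 10 genes lay at very different levels. In Buffer they spanned a 1755-fold range of FPKM. *Dkk3*, which encodes a secreted protein of the Dickkopf family, was the most abundant, with 491 FPKM in Buffer, 508 in Saline and 392 in STZ, above more than 99.1% of all genes in each library. *Rlbp1*, which encodes the retinoid-binding protein CRALBP, had 155, 146 and 122 FPKM. *Vim*, which encodes the intermediate filament vimentin, had 137, 143 and 122 FPKM (121.5 in STZ). *Glul*, the gene of glutamine synthetase, had 86.9, 104 and 91.2 FPKM. *Slc1a3*, the gene of the glutamate transporter GLAST, had 79.1, 73.6 and 82.2 FPKM. These 5 genes kept their order in all 3 libraries, although the counting intervals of *Rlbp1* and *Vim* overlapped in Saline and STZ.

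The other 5 genes were lower. *Clu*, which encodes the chaperone clusterin, had 14.8 FPKM in Buffer, 20.9 in Saline and 29.4 in STZ. *Sox9*, a transcription factor of progenitors and glia, had 9.31, 9.52 and 5.73 FPKM, and *Nfia*, a gliogenic factor of the nuclear factor I family, had 9.16, 12.7 and 9.22. The intervals of *Sox9* and *Nfia* overlapped in Buffer, whereas *Nfia* lay above *Sox9* in Saline and in STZ. *Kcnj10*, the gene of the potassium channel Kir4.1, had 4.14, 4.21 and 3.49 FPKM. *Aqp4*, the gene of the water channel of glial end-feet, had 0.28, 0.51 and 0.26 FPKM from 28, 54 and 27 reads, and exceeded at most 24.3% of all genes in any library. The channel genes of the mature end-foot were therefore the weakest of the list at P4, and *Dkk3* alone gave most of its reads. Of the 10 genes, 6 lay above the median FPKM of the genes with 10 counts or more on average, which ran from 12.6 in Buffer to 12.9 in STZ.

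**Figure D1:**
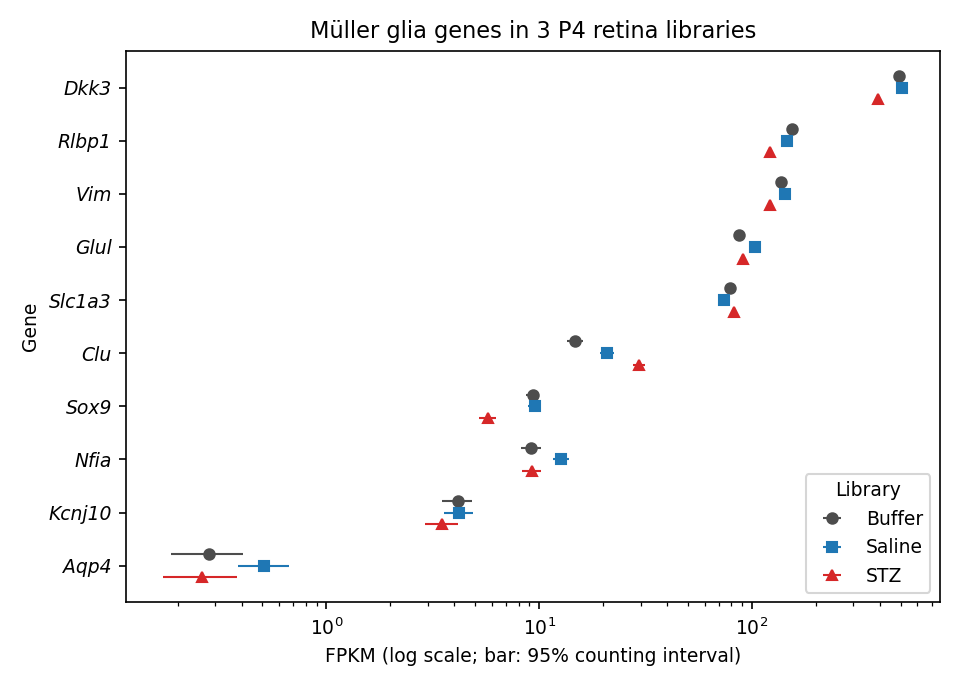
FPKM of the 10 Müller glia genes (vertical axis) on a log scale (horizontal axis) in the Buffer, Saline and STZ libraries, with bars for the 95% counting interval. The STZ point lies right of both controls for *Clu* (29.4 against 14.8 and 20.9) and, by less, for *Slc1a3*. It lies left of both for *Sox9* (5.73 against 9.31 and 9.52), *Dkk3*, *Rlbp1*, *Vim*, *Kcnj10* and *Aqp4*. The STZ bars of *Slc1a3*, *Kcnj10* and *Aqp4* overlap those of Buffer.

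To see which of these genes set STZ apart, each was compared with the vehicle first. By the fold thresholds 1 of the 10 genes was higher in STZ and 0 were lower, while of the 14885 genes that averaged 10 counts or more over the libraries 2.58% were higher and 1.15% were lower. By the counting interval 3 of the 10 were higher and 4 lower, against 26.2% and 18.8% of the 14885 genes. *Clu*, *Glul* and *Slc1a3* were the higher genes, and *Sox9*, *Rlbp1*, *Dkk3* and *Vim* were the lower ones. With the TMM or DESeq2 scaling of the libraries the intervals of *Glul* and *Slc1a3* included 1, and 20.8% and 23.9% of all genes were then higher and lower under TMM. The median log2 fold change was -0.10 over the 10 genes and 0.028 over the 14885.

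*Clu* was the gene past the upper threshold. It had 493 reads in Buffer, 696 in Saline and 982 in STZ, so that STZ was the highest library and Buffer the lowest, with Saline between them. The fold change was 1.92 in STZ against Buffer, a fold that 98.8% of the 14885 genes lay below, and the count ratio was 1.99 (1.78 to 2.22). Against Saline the fold was 1.39, short of the threshold, with a count ratio of 1.41 (1.28 to 1.55). The saline library itself exceeded Buffer by nearly the same ratio, 1.41 (1.26 to 1.59). The sums of the lens genes, and of 9 microglia genes given below, had the same order of libraries, and their part in the value of *Clu* was not tested. Clusterin is a secreted chaperone made by Müller glia and by many other cells, and by the span of the gene in the RefSeq table of the assembly GRCr8 *Clu* overlaps *Scara3*, which is also in the deposited table. By the same span *Glul* overlaps 4 other genes, of which the deposited table holds *LOC684709*, and *Nfia* overlaps 3. Whether reads were counted by strand is not given in the sources used here.

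*Sox9* was lower in STZ. It had 778 reads in Buffer, 795 in Saline and 480 in STZ, so the controls lay close together and STZ lay below both. The count ratio was 0.616 in STZ against Buffer (0.549 to 0.691) and 0.602 against Saline (0.537 to 0.675). Between the controls it was 1.02 (0.925 to 1.13), so the controls differed by less than counting error. The fold change was 0.653 against Buffer, just above the threshold of 0.65, and 0.640 against Saline, just below it. With a pseudocount of 0.1 in place of 1, with TMM or DESeq2 scaling, or with TPM in place of FPKM, *Sox9* lay under the threshold against Buffer as well. The RPC marker genes, most of them cell cycle genes, had 68628 summed reads in Buffer, 69044 in Saline and 50212 in STZ. Among them the cell cycle gene *Ccnd1* had folds of 0.611 and 0.605 against Buffer and Saline. By counting, 6 of 8 were lower in STZ against Buffer and 6 against Saline, where 18.8% and 23.5% of all genes were. The part of RPCs in the value of *Sox9* was not tested.

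*Rlbp1* and *Dkk3*, both abundant, were lower in STZ by similar amounts. *Rlbp1* had 6996 reads in Buffer, 6571 in Saline and 5501 in STZ, and *Dkk3* had 52915, 54670 and 42238. For each gene STZ was the lowest library. The count ratio against Buffer was 0.785 for *Rlbp1* (0.758 to 0.813) and 0.797 for *Dkk3* (0.787 to 0.807), and these intervals overlapped. Against Saline the ratios were 0.835 (0.806 to 0.866) and 0.771 (0.761 to 0.781). Neither gene reached the fold threshold. *Rlbp1* is also a gene of the pigment epithelium. By counting, of the 5 genes of that list that passed the minimum of counts, 4 were higher and 1, *Ttr*, was lower in Saline than in Buffer. Of all genes, 15.9% and 12% were. In that comparison *Rlbp1* was at a count ratio of 0.940 (0.909 to 0.972). The part of pigment epithelium in the values of *Rlbp1* was not tested. Nor was the part of RPCs, whose marker sums are given above, in the values of *Rlbp1* and *Dkk3*.

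*Vim* had 4708 reads in Buffer, 4915 in Saline and 4190 in STZ, and STZ was again the lowest library. Its count ratio was 0.888 against Buffer (0.852 to 0.926) and 0.850 against Saline (0.816 to 0.886). Vimentin is a filament of RPCs as well as of Müller glia, and in adult retina it is known to increase with gliosis. Vessel cells make it too. The 5 endothelial genes (13580, 14951 and 10082 summed reads) and 4 pericyte genes (403, 371 and 148) were each lower in STZ than in either control by counting. Of all genes, 14.8% lay below both controls in this way. *Kdr* gave most of the endothelial reads, with 13149, 14564 and 9972, so that sum mainly reports *Kdr*. Its count ratio against Buffer was 0.757, while those of the other endothelial genes ran from 0.1965 (*Cldn5*) to 0.524 (*Pecam1*). The part of vessel cells in the value of *Vim* was not tested.

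The glutamate genes of the list were near Buffer in STZ, but against Saline they lay on opposite sides of 1. *Slc1a3* had 6399 reads in Buffer, 5942 in Saline and 6652 in STZ, with a count ratio of 1.04 against Buffer (1.00 to 1.07; lower bound 1.003) and 1.12 against Saline (1.08 to 1.16). *Glul* had 4267, 5074 and 4485 reads, with a ratio of 1.05 against Buffer (1.01 to 1.09) and 0.882 against Saline (0.847 to 0.918). For *Glul* the STZ library therefore lay between both controls. The direction of *Glul* in STZ depended on which control was used.

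*Kcnj10* and *Aqp4*, which work together in the end-feet as potassium and water channels, were too weak for a small difference to be seen. *Kcnj10* had 151 reads in Buffer, 162 in Saline and 133 in STZ, and its count ratio was 0.879 against Buffer (0.691 to 1.12) and 0.819 against Saline (0.646 to 1.04). A change within those bounds was not detectable at this depth. The reads per FPKM of *Kcnj10* implied transcript lengths of 1.66, 1.75 and 1.73 kb in the 3 libraries, so its FPKM and its counts do not move in strict proportion, and for *Aqp4* they implied 4.55, 4.82 and 4.71 kb. The other 8 genes kept a length equal within 2% between libraries. *Aqp4* had a count ratio of 0.963 against Buffer (0.546 to 1.70) and 0.499 against Saline (0.302 to 0.806), the library in which it was highest.

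*Nfia* had 361 reads in Buffer, 499 in Saline and 364 in STZ. STZ and Buffer were alike in level, with a ratio of 1.01 whose interval ran from 0.868 to 1.17, and Saline was the highest. Against Saline the ratio was 0.728 (0.634 to 0.835).

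**Figure D2:**
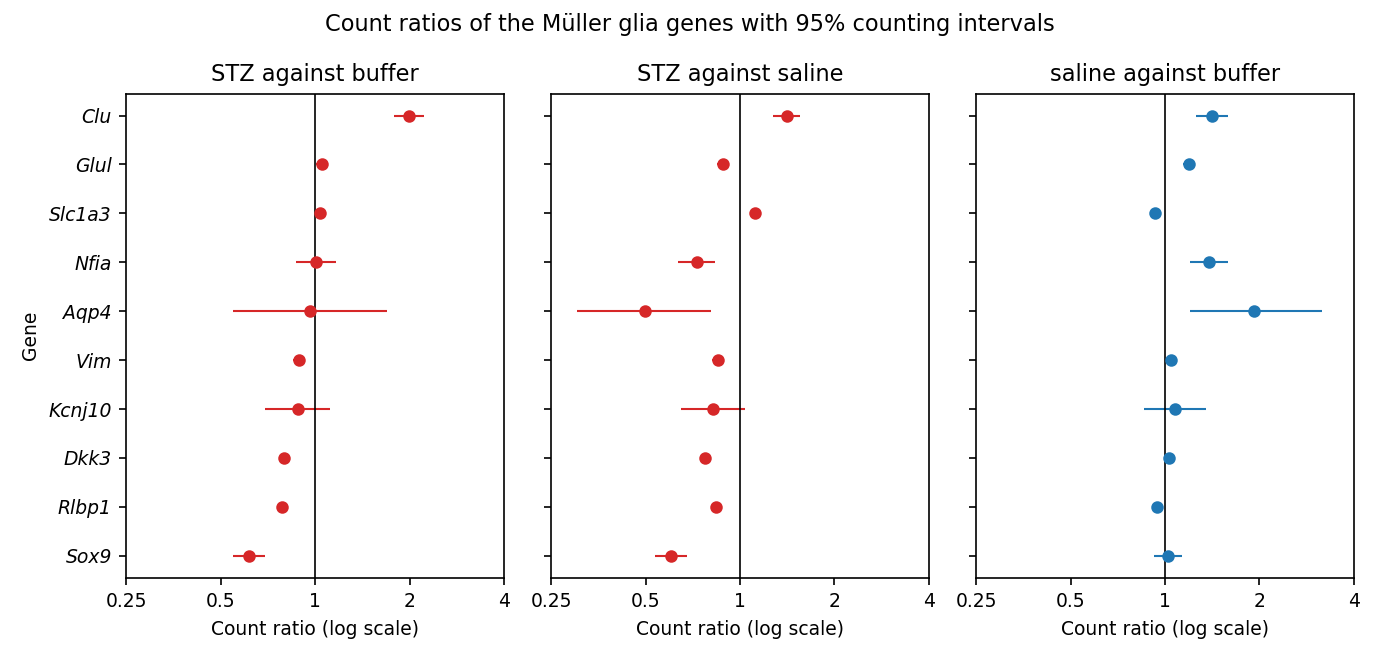
Count ratio (horizontal axis, log scale) of each Müller glia gene (vertical axis) for STZ over Buffer, for STZ over Saline and for the controls, Saline over Buffer, with bars for the 95% counting interval and a line at 1. *Clu* is at the far right in STZ against Buffer (1.99) and *Sox9* at the far left (0.616), and the intervals of *Aqp4* and *Kcnj10* are the widest.

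The second control asked whether the pattern held without the vehicle. In STZ against Saline, 0 of the 10 genes were past the upper threshold and 1, *Sox9*, was past the lower one, while 2.37% and 1.95% of the 14885 genes were past them. By counting, 2 of the 10 were higher and 7 were lower, against 26.9% and 23.5% of the 14885 genes. The median log2 fold change was -0.25 over the 10 genes and 0.013 over all. Both comparisons share the STZ library. STZ lay below both controls by counting for 4 of the 10 genes, *Rlbp1*, *Sox9*, *Vim* and *Dkk3*, as did 14.8% of all genes, and above both for *Clu* and *Slc1a3*, as did 19.4%. The call of *Slc1a3* against Buffer was lost under TMM and DESeq2 scaling. Such calls come more easily for deeply counted genes. Of the genes that averaged 300 counts or more, 8 members among them, 19.4% lay below both controls and 22.8% above both.

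**Figure D3:**
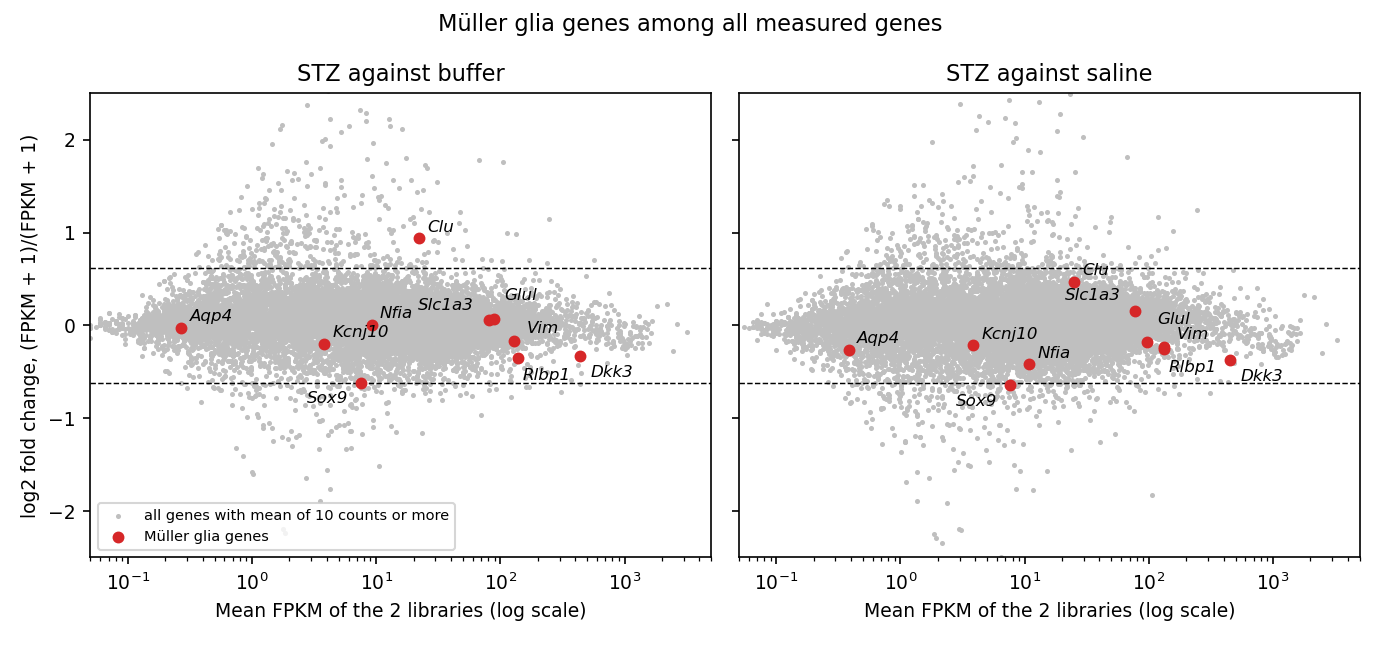
log2 fold change (vertical axis) against the mean FPKM of both libraries (horizontal axis, log scale) for STZ against Buffer and STZ against Saline. Grey points are the genes that averaged 10 counts or more, of which 25 and 22 lie beyond the vertical range, red points are the 10 Müller glia genes, and dashed lines mark both fold thresholds. *Clu* lies above the upper line against Buffer but not against Saline, and *Sox9* lies at the lower line in both panels.

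The controls themselves differed at some of these genes. In Saline against Buffer 0 of the 10 genes passed a fold threshold, while 1.01% and 0.443% of all genes were past the upper and the lower one. By counting, 6 of the 10 were higher and 2 were lower, against 15.9% and 12% of all genes (12.1% and 15.6% under TMM scaling). *Aqp4* had a count ratio of 1.93 (1.20 to 3.16), *Clu* of 1.41 (1.26 to 1.59), *Nfia* of 1.38 (1.21 to 1.59) and *Glul* of 1.19 (1.14 to 1.24). *Dkk3* was at 1.03 (1.02 to 1.05), and *Vim* was at 1.05 (1.00 to 1.09; lower bound 1.004), an interval that included 1 under TMM and DESeq2 scaling. By counting, 5 of the 10 genes were higher in Saline than in both other libraries, *Glul*, *Aqp4*, *Vim*, *Dkk3* and *Nfia*, as were 9.12% of all genes. *Slc1a3* was lower in Saline than in both, as were 7.59%. The ciliary and pigment epithelium genes moved in the same direction in the saline library (the sums above, with 5 of 5 ciliary and 4 of 5 pigment epithelium genes that passed the minimum of counts higher than in Buffer), and their part in these values was not tested.

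Promoter sequences were available for 7 of the 10 genes from RefSeq, and not for *Sox9*, *Clu* and *Dkk3*. The 250 bases before the start site are shown for the genes among the 7 whose STZ library lay outside both controls by counting, *Rlbp1* and *Vim* below them and *Slc1a3* above them (against Buffer with unscaled totals only). They are given 5′ to 3′ on the gene's strand, in the assembly GRCr8, at chr1:142731622-142731871 on the minus strand for *Rlbp1*, chr17:81577011-81577260 on the plus strand for *Vim*, and chr2:59557809-59558058 on the minus strand for the first of the 3 listed starts of *Slc1a3*. Capitals mark matches on either strand to TTGGC (the short site of nuclear factor I, since *Nfia* is in the list), ACAAAG or ACAATG (cores bound by SOX factors, since *Sox9* is), TGGGAA (the core bound by RBPJ, the factor of Notch signaling) and CCAAT, which overlaps TTGGC where ATTGGC occurs.

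Rlbp1: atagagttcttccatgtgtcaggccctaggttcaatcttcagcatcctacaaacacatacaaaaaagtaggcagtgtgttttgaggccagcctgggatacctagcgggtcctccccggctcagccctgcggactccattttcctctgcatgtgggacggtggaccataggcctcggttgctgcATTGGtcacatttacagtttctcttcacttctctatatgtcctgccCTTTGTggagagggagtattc
Vim: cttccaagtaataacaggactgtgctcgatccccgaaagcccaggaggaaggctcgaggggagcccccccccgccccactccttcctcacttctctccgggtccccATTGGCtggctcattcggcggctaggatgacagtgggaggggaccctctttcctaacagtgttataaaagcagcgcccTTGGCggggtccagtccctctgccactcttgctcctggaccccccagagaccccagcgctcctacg
Slc1a3: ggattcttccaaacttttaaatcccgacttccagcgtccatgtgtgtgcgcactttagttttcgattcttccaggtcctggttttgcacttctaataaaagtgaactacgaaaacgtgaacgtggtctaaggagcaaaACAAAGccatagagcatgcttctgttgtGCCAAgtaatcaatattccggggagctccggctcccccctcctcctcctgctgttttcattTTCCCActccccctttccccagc

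The *Rlbp1* stretch holds an ACAAAG match that begins 21 bases before the start site and a CCAAT match 67 bases before it. *Vim* has TTGGC at 143 and at 66 bases before the start, the first overlapping a CCAAT match. *Slc1a3* has ACAAAG at 112 bases, TTGGC at 84 bases and TGGGAA at 23 bases before it. In the window of 300 bases that also takes in the 50 bases after the start, TTGGC was found in 6 of the 11 promoters listed for the 7 genes (45.8% of all 33469 listed promoters hold it), ACAAAG in 6 (18.8%), ACAATG in 0 (13.2%), TGGGAA in 3 (25.7%) and CCAAT in 6 (37.5%). The 3 promoters of *Slc1a3* overlap and hold the same matches, so they are not independent, and *Glul* and *Aqp4* have 2 promoters each. These are matches of letters and not shown sites of binding.

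Lists of genes that work with the 10 were read in the same way, each over its members that passed the minimum of 10 counts. The list of Müller glia and progenitor fate factors, which holds transcription factors, Notch pathway genes and the mRNA decay factor *Zfp36l1*, had all 10 of its measured genes at folds below 1 in STZ, whichever control was used. By counting, 9 of the 10 were lower and 0 were higher in each comparison, where 18.8% (Buffer) and 23.5% (Saline) of all genes were lower. *Lhx2*, a homeobox factor needed for Müller glia to form, had 2416 reads in Buffer, 2567 in Saline and 1446 in STZ. Its fold was 0.603 against Buffer, the 1 gene of the list below 0.65, and 0.568 against Saline. *Sox8*, a close relative of *Sox9*, had 2360, 2754 and 1728 reads and folds of 0.738 and 0.634. *Nfib*, a relative of *Nfia*, had 1716, 2053 and 1302 reads and folds of 0.762 and 0.644. *Notch1*, the receptor whose activity favors glial fate, had 17929, 18420 and 12628 reads and folds of 0.706 and 0.687. *Hes5*, a Notch target, had 1174, 821 and 769 reads, so its low value in STZ was shared by Saline. *Id3* had 323, 558 and 300 reads and was below 0.65 against Saline only. The median log2 fold change of the list was -0.39 against Buffer and -0.56 against Saline. The part of RPCs, whose marker sums are given above, in these values was not tested.

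Other genes that mark Müller glia gave no common direction. By counting, 4 of 12 were higher and 5 lower in STZ against the vehicle, where 26.2% and 18.8% of all genes were. *Apoe*, the gene of the lipid carrier apolipoprotein E, had 961 reads in Buffer, 1449 in Saline and 3305 in STZ, with folds of 3.38 (Buffer) and 2.26 (Saline). *Apoe* is expressed by microglia too, and the 9 microglia genes summed to 1324, 1647 and 3751 reads. By counting, all 9 were higher in STZ than in either control, as were 19.4% of all genes. None of the 9 was at 0. As with *Clu*, the order of the libraries was Buffer, Saline, STZ, and the part of microglia in either gene's value was not tested. *Mlc1*, which encodes a membrane protein of glial end-feet, had 170, 212 and 84 reads and was past the lower threshold with folds of 0.614 (Buffer) and 0.514 (Saline). *Car14*, a membrane carbonic anhydrase, had 227, 273 and 322 reads and a fold of 1.36 against Buffer. Against Saline its fold was 1.13 and its counting interval included 1. *Kcnj2* had 76, 76 and 112 reads and folds of 1.385 (Buffer) and 1.251 (Saline). *Dbi* had 3600, 3199 and 2681 reads and folds of 0.743 and 0.831. *Ptgds* had 79, 127 and 61 reads and was below 0.65 against Saline only.

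The glutamate handling genes, which take up glutamate and turn it into glutamine, had medians of 0.078 against Buffer and 0.094 against Saline on the log2 fold scale over 8 genes, 2 of them *Glul* and *Slc1a3*, and of 0.12 and 0.094 over the other 6. *Slc38a5*, a glutamine transporter, was the 1 gene past a threshold against Buffer, with only 40, 25 and 7 reads, a fold of 0.553 and a count ratio of 0.175 (0.0660 to 0.394). The retinoid handling genes had medians of -0.10 and -0.19 over 7 genes with *Rlbp1* among them, and of 0.059 and -0.051 over the 6 without it, and 0 of them were past a threshold against Buffer. *Dhrs3*, a retinal reductase, was past the lower one against Saline at 0.583. The complex of dystrophin and its partners, which anchors *Aqp4* and *Kcnj10* at the end-foot membrane, was listed together with both and had medians of 0.027 and -0.047 over the 8 genes. Without *Aqp4* and *Kcnj10* the medians of the 6 partners were 0.069 and 0.099. In either comparison 0 of the 8 genes were past a threshold.

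Genes known to respond in gliosis differed among themselves. Of 11, 5 were past the upper threshold in STZ against Buffer (2.58% of all genes were) and 0 past the lower one (1.15%). Against Saline 2 were above and 2 were below, where 2.37% and 1.95% of all genes were. *Stat3*, the factor that drives reactive gliosis, had 1730 reads in Buffer, 1983 in Saline and 2731 in STZ, with a fold just past the upper threshold against Buffer and of 1.36 against Saline. *Edn2*, an endothelin peptide, had 4, 9 and 28 reads, and *Lif*, a cytokine upstream of *Stat3*, had 7, 3 and 39, so both are barely measured in the controls. The count ratio against Buffer was 6.99 for *Edn2* (2.44 to 27.4) and 5.56 for *Lif* (2.46 to 14.7). *Timp1* and *Cebpd* had folds of 1.83 and 1.68 against Buffer but 1.25 and 1.11 against Saline. *Gfap*, the filament of astrocytes and of reactive Müller glia, was lower, with 338, 410 and 214 reads and a count ratio of 0.632 against Buffer (0.530 to 0.752) and 0.521 against Saline (0.439 to 0.616). The astrocyte list, in which *Gfap* also stands, summed to 1115, 1132 and 528 reads, with *Aldh1l1* at 0, 1 and 0. By counting, 4 of its 4 measured genes were lower in STZ than in either control, as were 14.8% of all genes. The astrocyte genes past the lower threshold against Buffer were *Pax2* (0.617), *Pdgfra* (0.517) and *S100b* (0.641). The part of astrocytes in the values of *Gfap*, *Sox9* or *Aqp4* was not tested. *Serpina3n*, a protease inhibitor of reactive glia, had 2, 33 and 16 reads and was past the upper threshold in Saline against Buffer. *Cntf* had 159, 203 and 112 reads and was past the lower threshold against Saline, at 0.588, but not against Buffer, at 0.735.

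**Figure D4:**
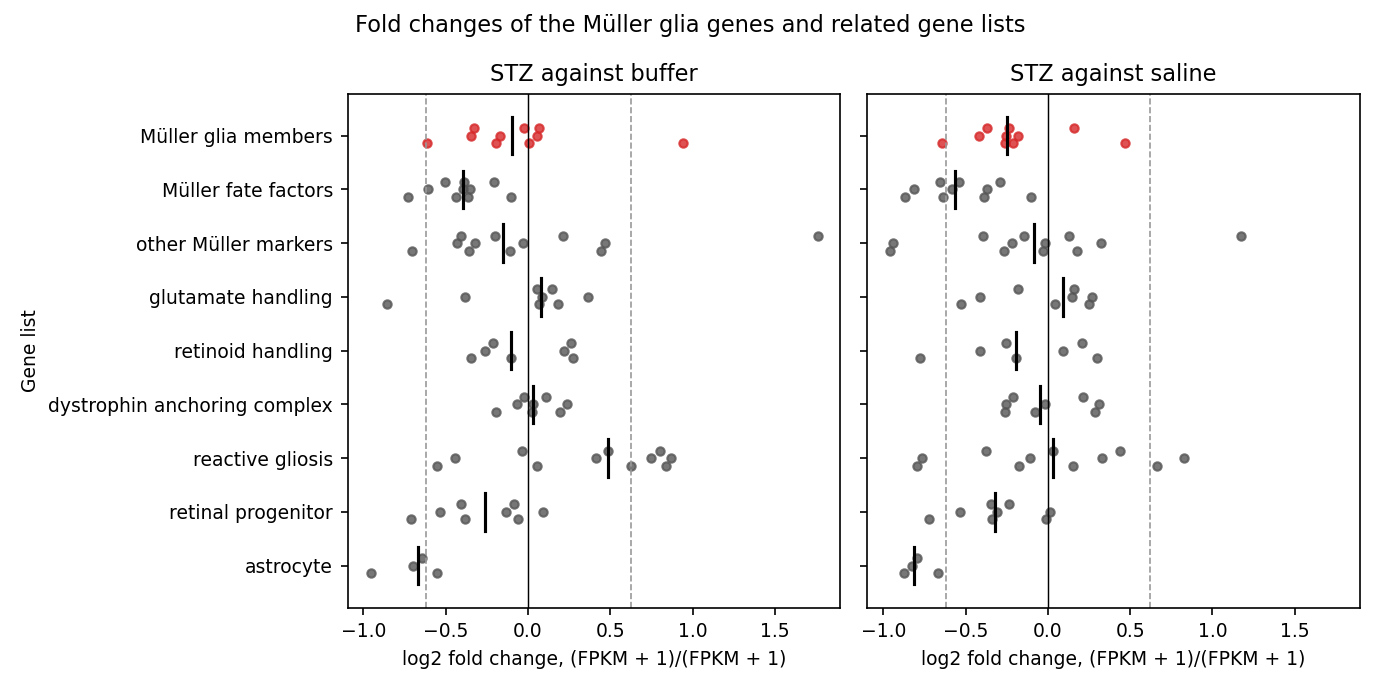
log2 fold change (horizontal axis) in STZ against Buffer and STZ against Saline for each gene that passed the minimum of counts in 9 gene lists (vertical axis), with a short black line at each list's median and dashed lines at the fold thresholds. The 10 Müller glia genes, in red, spread around medians of -0.10 and -0.25, while all 10 fate factors lie left of 0 in both panels.

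Markers of retinal neurons gave other values. The 6 rod genes, with 26529, 24731 and 32307 summed reads, were higher by counting in STZ than in either control, as were 19.4% of all genes. Of the 4 bipolar genes 3 were higher in each comparison, against 26.2% (Buffer) and 26.9% (Saline) of all genes. The other bipolar gene, *Trpm1*, which pigment cells also express, had 13, 213 and 19 reads and was past the lower threshold against Saline at 0.441. On the log2 fold scale against Buffer the median was 0.17 for the 5 ganglion cell genes and 0.27 for the 6 amacrine and horizontal cell genes. By counting, 4 of the latter 6 were higher and 1 lower against Buffer, where 26.2% and 18.8% of all genes were. Against Saline 3 were higher and 2 lower, where 26.9% and 23.5% were. The lower genes were *Onecut2*, with 138, 120 and 89 reads, in both comparisons, and *Slc6a9* against Saline. No test of the difference between these lists and the Müller glia genes could be made with 1 library per condition.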

How the data were processed

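The authors checked reads with FastQC, trimmed them, aligned them by TopHat2 with up to 2 mismatches and discarded reads with several locations. The build is rn6 per the labels, and the annotation and counter are not given in the sources used here. For every gene of a library the authors deposited FPKM from a custom R script, TPM, and an estimated count. The joint table and the tables of single libraries held identical values. The deposited counts were fractional for 12.9% to 13.2% of genes, but whole for all 10 members, and were rounded before intervals were computed.

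Fold changes, intervals and gene lists used Python 3.11.15, numpy 2.4.6, pandas 2.3.3 and scipy 1.17.1. Scaling factors came from edgeR 4.0.16 and DESeq2 1.42.0 in R 4.3.3, with TMM factors of 0.985, 1.00 (1.001) and 1.01 for Buffer, Saline and STZ. No count model was fitted, since there are no replicates. Genes were named as all 10 members, and from the lists of genes that work with them the members past a threshold and some others. Not every gene with a large or small fold within the thresholds is named. The lists of other cell types are given mainly by sums and counts, and not all of their genes past a threshold are named. Members, lists and motifs were chosen with earlier results of these data known. *Nfix* and *Fgf15* of the lists had no row under those symbols. The calculations were tested on simulated data. Alternatives were other pseudocounts, thresholds, filters, units, scalings, controls and the counting interval. Figures were drawn with matplotlib 3.10.9.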

Additional observations from a re-analysis of the deposited data

How the results depend on the processing

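With 1 library per condition no replicate could be left out. No paired analysis was possible because each group has a single library. The numbers of the 10 genes past a threshold are small and rest on *Clu* and *Sox9*, joined under some settings by *Aqp4*. In STZ against Buffer 1 gene passed, and 2 passed with a pseudocount of 0.1, TMM scaling, DESeq2 scaling, TPM, CPM, or both controls averaged, because *Sox9* then lay below 0.65. In STZ against Saline 1 gene passed, and 2 passed with the pseudocount of 0.1 or CPM, since *Aqp4* then lay at 0.590 and 0.644. In Saline against Buffer 0 passed, and 1, *Aqp4* at 1.60, passed with the pseudocount of 0.1. With thresholds of 2 and 0.5, 0 genes passed in STZ against either control. By the counting interval 7, 9 and 8 genes were called in the 3 comparisons in that order, and with TMM or DESeq2 scaled totals, added after the data were seen, 5, 9 and 7. The median log2 fold of the 10 genes kept its sign under every alternative tried, at -0.20 to -0.10 for STZ against Buffer, -0.27 to -0.25 for STZ against Saline and 0.033 to 0.083 for Saline against Buffer. Of 220 single folds under alternatives, 209 moved by less than counting error and 11 by more. The 220 include folds under the filter of 10 counts, which all 10 genes pass, so those folds could not move. *Clu* in STZ against Buffer lay between 1.61 and 1.99, and *Sox9* between 0.616 and 0.653. Depth limits *Aqp4* and *Kcnj10* most.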
